A study of Homo sapiens with 12 samples.

Results

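The potassium channel genes of 2 human cell lines with the JAK2V617F mutation, UKE1 and HEL, were described with and without the histone deacetylase inhibitor ITF2357 (givinostat). The genes were taken by symbol: every name that begins with KCN and a further letter, without antisense and opposite-strand names, and with a row of the array table that carries a single gene symbol. This gave 86 genes out of 18417 with such a row. Among them KCNQ1DN belongs to none of the channel classes described below, and it was counted with the rest. Where a gene had several rows, the brightest on average stood for it. The 4 groups were UKE1 cells with 250 nM ITF2357 for 6 h, UKE1 cells kept 6 h without drug, HEL cells with 250 nM ITF2357 for 6 h and HEL cells kept 6 h without drug, with 3 Affymetrix Gene ST arrays each. All 12 samples are labelled as erythroleukemia cells that carry JAK2V617F, a mutation that leaves the kinase JAK2 active without cytokine. Each line was grown in its own medium, and that of UKE1 also held 10% horse serum, 10 µM hydrocortisone and HEPES buffer, so line and medium cannot be told apart. Both are established cell lines, and no line without the mutation was included. In bulk RNA, fewer cells of a type and less RNA per cell cannot be told apart.

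Potassium channels let potassium leave or enter a cell along its gradient and so set the membrane voltage, cell volume and the electrical drive for calcium entry. The pore subunits fall into voltage-gated channels, channels opened by intracellular calcium or sodium, inward rectifiers, and two-pore-domain channels that carry a resting leak. Silent subunits form no channel alone but join voltage-gated pores, and auxiliary subunits change how a pore opens or reaches the membrane. In blood cells the calcium-activated channel KCNN4 is known as the Gardos channel, through which red cells lose potassium and water, and KCNA3 is the voltage-gated channel typical of T lymphocytes.

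The values are log2 signals after robust multi-array averaging (RMA), with array medians between 6.41 and 6.50. Whether a gene was above background is not recorded, and signals of different genes are not set against each other because each gene has its own probes. Pairs of arrays correlated across all rows with r between 0.994 and 0.996 inside a group. Treated against untreated arrays of a line gave 0.981 to 0.985, and UKE1 against HEL arrays 0.928 to 0.943. A gene was called where limma's adjusted p (Benjamini-Hochberg over all 18417 genes) was under 0.05. The series speaks of independent triplicates and says no more, so a p-value reflects the variation among these cultures alone.

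The label was set against marker genes. Of 9 measured erythroid markers 8 were lower and 1, AHSP, was higher in untreated UKE1 than in untreated HEL. Between the untreated lines 67.7% of all genes were called, 33.3% higher and 34.4% lower in UKE1. AHSP had 3.97 in untreated UKE1 and 3.74 in untreated HEL, both below 7.01, the median of the gene means. The embryonic globin HBE1 was at 5.19 in untreated UKE1 and 12.95 in untreated HEL, and ALAS2, the first enzyme of haem synthesis in erythroid cells, at 5.96 and 9.48 in the same order. Of 7 measured lymphoid markers 3 were higher and 2 lower in untreated UKE1 (71.4% called, against 67.7% of all genes). CD3D and CD3E, chains of the T-cell receptor complex, were higher in untreated UKE1 by 4.84 and 3.61 on the log2 scale. The summed log2 level of the 9 erythroid markers was 57.5 to 57.9 over the untreated UKE1 arrays and 78.8 to 79.4 over the untreated HEL arrays. That of the 7 lymphoid markers was 48.4 to 49.0 in untreated UKE1 and 39.8 to 40.1 in untreated HEL. Each sum compares the same genes between groups, and single genes such as HBE1, CD3D and CD3E weigh heavily in it. The lowest deposited value of any row was 1.26, so a marker could not be at 0, and whether any was above background is not recorded.

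Marker genes were also compared with and without the drug. Of 9 measured megakaryocyte markers 0 rose and 6 fell in UKE1 (66.7% called, against 44.3% of all genes), and 0 rose and 5 fell in HEL (55.6%, against 42.4%). Their summed log2 level was 75.9 over all treated UKE1 arrays and 79.4 to 80.2 over the untreated ones, and 78.1 to 78.7 over treated and 81.6 to 82.2 over untreated HEL arrays. Without drug 2 of them were higher and 6 lower in UKE1 than in HEL (88.9% called, against 67.7% of all genes). Of 7 myeloid markers 1 rose and 3 fell in UKE1 (57.1% called, against 44.3% of all genes). In HEL 0 rose and 1 fell (14.3%, against 42.4%). Their sums were 48.4 to 49.1 in treated and 49.0 to 50.1 in untreated UKE1, and 48.8 to 49.2 in treated and 49.6 to 50.2 in untreated HEL. Lymphoid markers had 0 that rose and 3 that fell in UKE1 (42.9% called), and 0 that rose and 2 that fell in HEL (28.6%). Both shares were below those of all genes. Of the erythroid markers 0 were called in UKE1 by limma (1 had an unadjusted p under 0.05), and 1 rose and 2 fell in HEL (33.3% called). These shares too were below those of all genes. The part of these marker changes in the values of the channel genes was not tested.

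Most potassium channel genes showed little change with the drug. In UKE1 6 of the 86 rose, 11 fell and 69 were not called, so that 19.8% were called against 44.3% of all genes tested (22.0% higher and 22.3% lower). In HEL 9 rose, 11 fell and 66 were not called, 23.3% against 42.4% of all genes (22.6% higher and 19.9% lower). All 3 treated arrays lay above all 3 untreated ones for 8 channel genes in UKE1 and below them for 15, while 27.2% and 26.7% of all genes did so, 53.9% together. In HEL 11 lay above and 12 below, with 25.3% and 23.7% of all genes, 49.0% together. The median log2 change of the 86 genes was 0.00 in UKE1 and -0.02 in HEL, beside 0.01 and -0.01 over all genes, and their median absolute change was 0.08 and 0.11, beside 0.18 and 0.17. In each line the share of channel genes called was below that of all genes. A change of at least 2-fold past the threshold was seen for 3 channel genes in UKE1 (3.49%, against 4.45% of all genes) and for 2 in HEL (2.33%, against 3.73%). The number that rose in HEL was the least steady of these counts: it was 4 with an intensity trend in the variance prior, and 5 without ITF2357-treated HEL replicate 1 or 3, or without untreated HEL replicate 1 or 3.

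The low share went with low signals. Of the 86 genes 74 had a mean over all arrays below 7.01, the median of the gene means. Of those 74, 13.5% were called in UKE1 and 17.6% in HEL, beside 25.0% and 21.7% of all genes below that median. Of the other 12, 7 were called in UKE1 and 7 in HEL (58.3% each), beside 63.6% and 63.2% of all genes at or above it. Among these brighter 12, 6 fell and 1 rose in each line. Over all genes at or above the median, 34.2% fell and 29.4% rose in UKE1, and 29.9% fell and 33.3% rose in HEL. How much of the lower share comes from weak signals was not tested beyond this split.

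**Figure D1:**
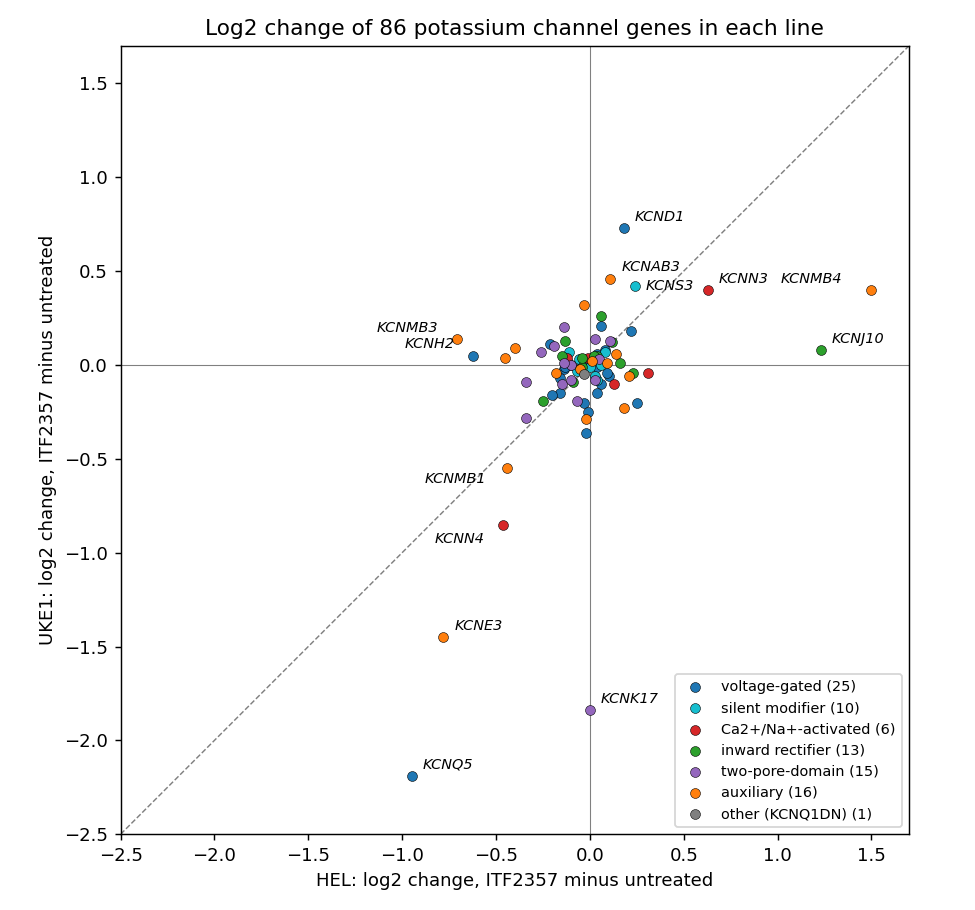
Log2 change with ITF2357 in HEL (x axis) and in UKE1 (y axis) for the 86 potassium channel genes, each point 1 gene coloured by its role, with the dashed line marking equal change. Most points lie near the origin; KCNQ5, KCNE3 and KCNN4 lie low on both axes, KCNK17 lies low on the UKE1 axis (-1.84) and near 0 on the HEL axis (interval -0.13 to 0.12), and KCNMB4 and KCNJ10 lie far right.

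The genes that fell in both lines were KCNQ5, KCNE3, KCNN4, KCNMB1 and KCNK5, and those that rose in both were KCNMB4, KCNN3 and KCNS3. These 8 were called in both lines, 21 in 1 line, and none of the 86 was called in opposite directions. Over all genes 12.9% fell in both lines, 14.0% rose in both, 0.603% rose in UKE1 and fell in HEL, and 1.49% fell in UKE1 and rose in HEL. The 3 genes that rose in both and the 5 that fell in both are 3.49% and 5.81% of the channel genes.

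KCNQ5 showed the largest fall in both lines. It encodes a voltage-gated pore subunit of the M-current, a slow potassium current that restrains excitability and is best known in neurons. Its signals were 6.40, 6.77 and 6.59 in treated UKE1, against 8.71, 8.80 and 8.83 in untreated UKE1. In HEL they were 6.70, 6.71 and 6.78 with drug, against 7.64, 7.70 and 7.71 without. No treated array overlapped an untreated one in either line. KCNQ5 fell 4.57-fold in UKE1 (log2 -2.19 ± 0.081 SE, adjusted p = 4.12e-10) and 1.94-fold in HEL (-0.95 ± 0.081, adjusted p = 4.16e-07). The fall was larger in UKE1 by 1.24 on the log2 scale (95% interval of UKE1 minus HEL -1.49 to -0.99, adjusted p = 5.58e-06). The other measured genes of its family were not called with the drug: KCNQ1, a pore of heart and epithelia, had log2 changes of 0.00 (95% interval -0.22 to 0.23) in UKE1 and -0.04 (-0.27 to 0.18) in HEL, and KCNQ3 had -0.01 and -0.13.

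KCNE3 encodes a small single-pass subunit that joins voltage-gated pores, among them KCNQ1, and holds that pore open in epithelia. It had 6.13, 6.02 and 5.91 in treated UKE1, against 7.49, 7.58 and 7.35 in untreated UKE1. HEL gave 6.75, 6.66 and 6.68 with drug, against 7.47, 7.57 and 7.40 without. The untreated arrays of the lines overlapped (difference -0.01, 95% interval -0.17 to 0.16), whereas every treated UKE1 array lay below every treated HEL array. KCNE3 fell 2.73-fold in UKE1 (adjusted p = 6.51e-09) and 1.72-fold in HEL (adjusted p = 1.72e-06), and the responses differed by -0.67 ± 0.11 SE (adjusted p = 0.000623). Of the 4 other measured KCNE genes, KCNE4 rose in HEL by 0.21, and no other call was made with the drug.

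KCNN4, the Gardos channel, had 6.86, 7.03 and 6.72 in treated UKE1, against 7.71, 7.80 and 7.65 in untreated UKE1. In HEL the values were 7.02, 6.88 and 6.96 with drug, against 7.40, 7.42 and 7.42 without. All treated arrays lay below all untreated arrays of their line. It fell 1.80-fold in UKE1 (log2 -0.85 ± 0.077 SE, adjusted p = 6.64e-07) and 1.38-fold in HEL (-0.46 ± 0.077, adjusted p = 0.0002), a difference of -0.39 ± 0.11 between the lines (adjusted p = 0.019).

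The promoters of 5 genes called with the drug are shown, chosen after their values were seen. KCNQ5, KCNE3 and KCNN4 fell in both lines, KCNK17 fell in UKE1, and KCNJ10 rose in HEL. KCNMB4, which had the largest rise in HEL, had no entry in the promoter source. Each run is the 250 bases before the RefSeq transcription start on the gene's strand in GRCh38.p14, written 5′ to 3′. Capitals mark the GC box (GGGCGG), the E-box (CACGTG) and the CCAAT box (CCAAT), searched on both strands, and none of these motifs contains another.
KCNQ5 (chr6:72621814-72622063, plus strand): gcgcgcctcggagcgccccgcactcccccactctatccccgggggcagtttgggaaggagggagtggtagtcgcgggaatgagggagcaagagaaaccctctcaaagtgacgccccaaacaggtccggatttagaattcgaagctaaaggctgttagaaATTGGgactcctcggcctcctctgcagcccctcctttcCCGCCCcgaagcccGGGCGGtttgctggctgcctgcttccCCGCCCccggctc
KCNE3 (chr11:74467550-74467799, minus strand): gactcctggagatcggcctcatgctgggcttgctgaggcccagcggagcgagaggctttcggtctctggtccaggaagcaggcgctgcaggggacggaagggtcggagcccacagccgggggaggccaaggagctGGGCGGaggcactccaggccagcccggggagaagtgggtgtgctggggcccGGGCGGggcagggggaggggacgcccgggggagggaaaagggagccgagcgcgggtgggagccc
KCNN4 (chr19:43780974-43781223, minus strand): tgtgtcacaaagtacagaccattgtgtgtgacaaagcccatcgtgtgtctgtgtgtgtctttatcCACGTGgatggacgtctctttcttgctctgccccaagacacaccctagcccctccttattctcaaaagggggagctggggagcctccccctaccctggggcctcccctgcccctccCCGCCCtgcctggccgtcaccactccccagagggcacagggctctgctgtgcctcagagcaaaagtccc
KCNK17 (chr6:39314420-39314669, minus strand): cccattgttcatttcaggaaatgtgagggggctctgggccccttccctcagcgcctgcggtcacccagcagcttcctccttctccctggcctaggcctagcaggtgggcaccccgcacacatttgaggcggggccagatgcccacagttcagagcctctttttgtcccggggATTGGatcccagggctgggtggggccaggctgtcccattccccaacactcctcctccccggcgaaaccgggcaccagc
KCNJ10 (chr1:160070161-160070410, minus strand): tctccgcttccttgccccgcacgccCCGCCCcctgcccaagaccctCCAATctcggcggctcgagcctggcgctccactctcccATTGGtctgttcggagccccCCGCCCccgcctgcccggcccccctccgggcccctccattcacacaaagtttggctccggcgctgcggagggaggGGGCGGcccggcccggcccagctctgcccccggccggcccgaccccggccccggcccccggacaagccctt
The KCNQ5 window held 3 GC boxes and 1 CCAAT box, the KCNE3 window 2 GC boxes, the KCNN4 window 1 GC box and 1 E-box, the KCNK17 window 1 CCAAT box, and the KCNJ10 window 3 GC boxes and 2 CCAAT boxes. Over the first listed start of each of 27305 genes in the RefSeq table, 42.3% of such windows held a GC box, 6.5% an E-box and 33.0% a CCAAT box. Of the 68 potassium channel genes with an entry, 58.8%, 4.4% and 29.4% did. Their median GC content was 65.0%, beside 58.0% for all genes of the table. A match describes letters in these windows and not a bound site.

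Genes for the large-conductance calcium-activated (BK) channel moved in different directions. KCNMA1, its pore subunit, was not called with the drug: the log2 change was 0.04 (95% interval -0.11 to 0.18) in UKE1 and -0.12 (-0.26 to 0.02) in HEL. Among the subunits that tune the calcium response of this pore, KCNMB4, the form best known from neurons, rose in both lines. KCNMB4 had 6.75, 6.57 and 6.57 in treated UKE1, against 6.21, 6.22 and 6.25 in untreated UKE1, and 8.40, 8.34 and 8.57 in treated HEL, against 7.10, 6.99 and 6.73 in untreated HEL. Treated arrays lay above untreated arrays in each line, and the treated HEL arrays above all others. The increase was 1.32-fold in UKE1 (adjusted p = 0.00281) and 2.83-fold in HEL (adjusted p = 2.93e-08), and the UKE1 response was smaller by 1.10 ± 0.13 SE on the log2 scale (adjusted p = 5.36e-05).

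KCNMB1, the subunit best known from smooth muscle, fell in both lines instead. It had 6.51, 6.64 and 6.68 in treated UKE1, against 7.30, 7.08 and 7.08 in untreated UKE1, and 6.98, 6.86 and 7.13 in treated HEL, against 7.46, 7.49 and 7.35 in untreated HEL. The falls of 1.46-fold (adjusted p = 0.000113) and 1.36-fold (adjusted p = 0.000724) were not called different (difference -0.10, 95% interval -0.37 to 0.16). KCNMB3 fell in HEL by 0.71 ± 0.15 SE on the log2 scale (adjusted p = 0.00161) and had 0.14 (95% interval -0.19 to 0.47) in UKE1, but this rests on the choice of row. It has 4 rows, whose HEL log2 changes were -0.18, -0.91, -0.71 and -0.63. KCNMB2 had -0.04 and -0.18 and was not called.

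The small-conductance calcium-activated genes rose where they were called. KCNN3, a calmodulin-gated pore, had 6.03, 6.06 and 6.23 in treated UKE1, against 5.62, 5.78 and 5.74 in untreated UKE1. HEL gave 7.40, 7.45 and 7.48 with drug, against 6.71, 6.83 and 6.90 without. The groups did not overlap in either line, with increases of 1.32-fold in UKE1 (adjusted p = 0.000482) and 1.55-fold in HEL (adjusted p = 7.8e-06). KCNN1, its close relative, rose in HEL by 0.31 (adjusted p = 0.00416) and had -0.04 (95% interval -0.21 to 0.12) in UKE1, a difference of -0.35 ± 0.11 SE (adjusted p = 0.0304). KCNN4, of the same family, fell in both lines as given above. The sodium-activated pores KCNT1 and KCNT2 were not called with the drug in either line. Of these 6 calcium- or sodium-activated genes, 1 rose and 1 fell in UKE1 (33.3% called, against 44.3% of all genes), and 2 rose and 1 fell in HEL (50.0%, against 42.4%).

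**Figure D2:**
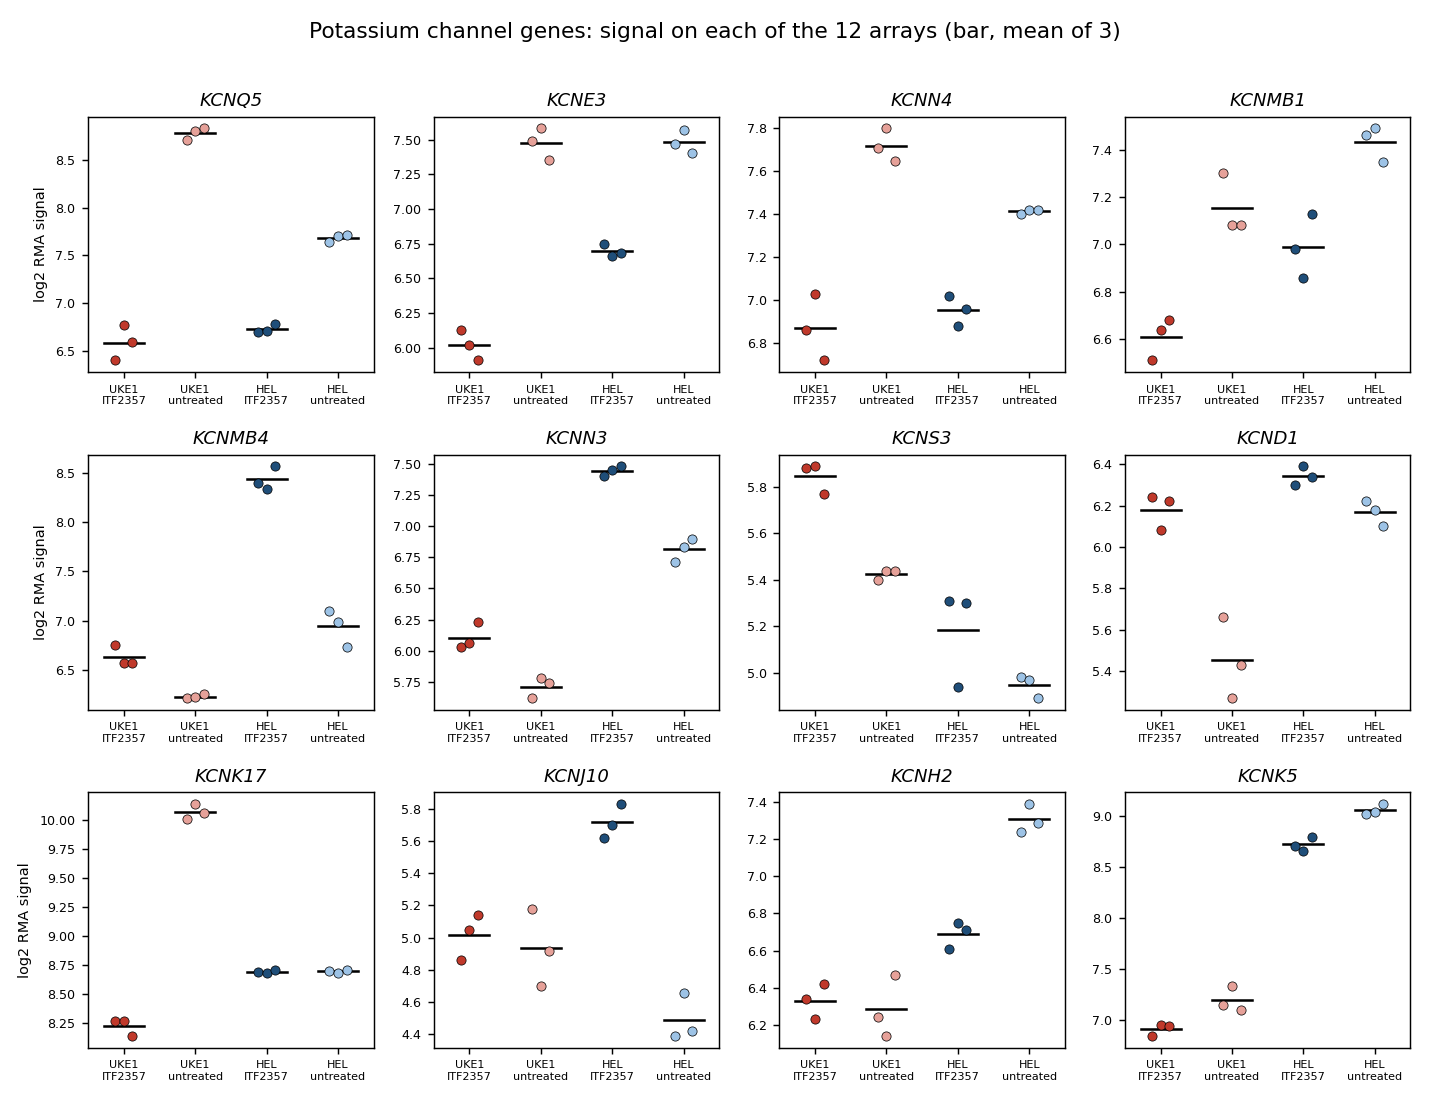
RMA log2 signal (y axis, its range set for each gene) of 12 potassium channel genes on every array, with UKE1 groups in red and HEL groups in blue, ITF2357 dark and untreated pale, and the mean of 3 arrays as a bar. KCNQ5, KCNE3, KCNN4, KCNMB1 and KCNK5 lie lower with drug in both lines, while KCNK17 is lower in UKE1 and flat in HEL (8.69 with drug, 8.70 without).

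KCNK17, an alkaline-activated leak channel of the two-pore-domain class, had 8.27, 8.27 and 8.14 in treated UKE1, against 10.01, 10.14 and 10.06 in untreated UKE1. In HEL it had 8.69, 8.68 and 8.71 with drug, against 8.70, 8.68 and 8.71 without. It fell 3.58-fold in UKE1 (log2 -1.84 ± 0.060 SE, adjusted p = 1.29e-10), and its HEL change lay between -0.13 and 0.12 (95% interval, adjusted p = 0.968). The responses differed by -1.84 ± 0.084 SE (adjusted p = 4.55e-08). Its gene neighbours on chromosome 6 are KCNK5 and KCNK16. KCNK5, a leak channel sensitive to external pH, fell by 0.28 in UKE1 (adjusted p = 0.00569) and by 0.34 in HEL (adjusted p = 0.0015), and KCNK16 was not called in either line.

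KCNK6, a weakly rectifying leak channel, had 7.66, 7.61 and 7.72 in treated UKE1, against 7.78, 7.76 and 7.73 in untreated UKE1, and 8.71, 8.62 and 8.79 in treated HEL, against 8.98, 9.01 and 9.16 in untreated HEL. It fell in HEL by 0.34 (adjusted p = 0.000865), and in UKE1 its change was -0.09 (95% interval -0.23 to 0.06). The difference of 0.25 between the lines was not called (adjusted p = 0.0759), and it was called at 0.0307 when only genes at or above the median level were tested. KCNK9, an acid-sensitive leak channel, rose in UKE1 by 0.20 (adjusted p = 0.0181) and had -0.14 in HEL, and the difference of 0.33 was called (adjusted p = 0.0128). Both calls for KCNK9 were lost with the intensity trend (adjusted p = 0.0892 and 0.06). Of 15 two-pore-domain genes 1 rose and 2 fell in UKE1 (20.0% called, against 44.3% of all genes), and 0 rose and 2 fell in HEL (13.3%, against 42.4%).

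Inward rectifiers pass potassium more easily into the cell than out of it. Of 13 measured, 0 were called in UKE1 by limma (0 rows had an adjusted p under 0.05, and 1 had an unadjusted p under that value), while 2 rose and 1 fell in HEL (23.1% called, against 42.4% of all genes). In UKE1 44.3% of all genes were called. KCNJ10, the potassium-buffering channel of glia, had 4.86, 5.05 and 5.14 in treated UKE1, against 5.18, 4.70 and 4.92 in untreated UKE1. In HEL it had 5.62, 5.70 and 5.83 with drug, against 4.39, 4.66 and 4.42 without. The UKE1 groups overlapped, and the treated HEL arrays lay above all others. It rose 2.34-fold in HEL (adjusted p = 1.2e-06), with a log2 change of 0.08 (95% interval -0.17 to 0.34) in UKE1 and a difference of -1.14 ± 0.17 SE (adjusted p = 0.000236). KCNJ9, the next gene on chromosome 1, was not called with the drug (0.05 in UKE1 and 0.02 in HEL).

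KCNJ8, a pore of the ATP-sensitive channel, rose in HEL by 0.23 (adjusted p = 0.0434), and its partner ABCC9 was not called (0.03 in UKE1 and 0.11 in HEL). The KCNJ8 call was lost with the intensity trend (adjusted p = 0.0764). In UKE1 KCNJ8 had -0.04, and the difference of -0.27 was not called (adjusted p = 0.134). KCNJ14 fell in HEL by 0.25 (adjusted p = 0.0152) and had -0.19 in UKE1 (adjusted p = 0.058). Its difference of 0.06 was not called (adjusted p = 0.732). KCNJ2, a strong inward rectifier of muscle and other tissues, was not called, with 0.05 (95% interval -0.14 to 0.25) in UKE1 and 0.04 (-0.15 to 0.24) in HEL.

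In the voltage-gated class of 25 genes, KCNQ5 included, 1 rose and 4 fell in UKE1 (20.0% called, against 44.3% of all genes), and 2 rose and 2 fell in HEL (16%, against 42.4%). KCNH2, the pore of the rapid repolarising current of the heart, had 6.34, 6.23 and 6.42 in treated UKE1, against 6.24, 6.14 and 6.47 in untreated UKE1, and 6.61, 6.75 and 6.71 in treated HEL, against 7.24, 7.39 and 7.29 in untreated HEL. It fell 1.54-fold in HEL (adjusted p = 3.84e-05), where the groups did not overlap, and had a log2 change of 0.05 (95% interval -0.14 to 0.23) in UKE1. The responses differed by 0.67 ± 0.12 SE (adjusted p = 0.0013). The treated HEL arrays remained above all 6 UKE1 arrays.

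KCND1 and KCND2 encode pores of fast, transient (A-type) currents. KCND1 had 6.24, 6.08 and 6.22 in treated UKE1, against 5.66, 5.27 and 5.43 in untreated UKE1, and 6.30, 6.39 and 6.34 in treated HEL, against 6.22, 6.18 and 6.10 in untreated HEL. It rose 1.65-fold in UKE1 (adjusted p = 9.57e-06) and was not called in HEL (log2 0.18, 95% interval -0.01 to 0.37), with a difference of 0.55 ± 0.12 SE (adjusted p = 0.0055). KCND2 rose in HEL by 0.25 (adjusted p = 0.0315) and had -0.20 (adjusted p = 0.0781) in UKE1, and the difference of -0.45 was called (adjusted p = 0.0165). Its mean over all arrays was 3.75. The KCND2 call in HEL was lost with only the HEL arrays in the fit (adjusted p = 0.0646) and with the intensity trend (adjusted p = 0.0792), while its UKE1 change was called after median centring (-0.24, adjusted p = 0.0464) and with only the UKE1 arrays in the fit (-0.20, adjusted p = 0.0436).

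KCNA3 fell in UKE1 by 0.36 (adjusted p = 0.0019) and had -0.02 (95% interval -0.19 to 0.15) in HEL. Its arrays read 4.60, 4.68 and 4.76 in treated UKE1, against 5.11, 5.01 and 5.00 in untreated UKE1. The lymphoid markers CD3D and CD3E, which were higher in untreated UKE1 than in untreated HEL, also fell with the drug in UKE1, by 0.40 and 0.21. CD79A fell there too (-0.52), while CD2, CD7, CD5 and MS4A1 were not called (-0.22, -0.02, 0.12 and -0.23). The part of these markers in the KCNA3 values was not tested. KCNC2 and KCNC4, pores of fast-spiking neurons, fell in UKE1 by 0.20 and 0.25 (adjusted p = 0.0334 and 0.00823). In HEL they had -0.03 and -0.01, and the differences of -0.17 and -0.24 were not called (adjusted p = 0.254 and 0.0918). KCNH3, a brain channel, rose in HEL by 0.22 (adjusted p = 0.0472), a call that was lost with the intensity trend (adjusted p = 0.0602) and with a replicate block (adjusted p = 0.0965). In UKE1 KCNH3 had 0.18 (adjusted p = 0.108), and the difference of -0.04 was not called (adjusted p = 0.834).

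Among 10 silent subunits 1 gene rose in each line and 0 fell (10.0% called, against 44.3% of all genes in UKE1 and 42.4% in HEL). It was KCNS3, a partner of voltage-gated pores, with 5.88, 5.89 and 5.77 in treated UKE1, against 5.40, 5.44 and 5.44 in untreated UKE1. In HEL it had 5.31, 4.94 and 5.30 with drug, against 4.98, 4.97 and 4.89 without, and those groups overlapped. The increase was 1.34-fold in UKE1 (adjusted p = 0.0012) and 1.18-fold in HEL (adjusted p = 0.0424). The HEL call was lost with only the HEL arrays in the fit, with the intensity trend and with a replicate block (adjusted p = 0.0986, 0.0712 and 0.0619).

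The 16 auxiliary subunits held 2 genes that rose and 4 that fell in UKE1, and 2 that rose and 5 that fell in HEL. This was 37.5% called in UKE1 and 43.8% in HEL, against 44.3% and 42.4% of all genes. The 3 KCNAB genes, cytoplasmic subunits of the KCNA pores related to oxidoreductases, each responded differently in the lines. KCNAB2 had 10.53, 10.61 and 10.47 in treated UKE1, against 10.77, 10.91 and 10.79 in untreated UKE1, and fell by 0.29 (adjusted p = 0.00127). Its change in HEL was -0.02 (95% interval -0.15 to 0.11). KCNAB3 rose in UKE1 by 0.46 (adjusted p = 9.03e-05) and had 0.11 in HEL, and KCNAB1 fell in HEL by 0.40 (adjusted p = 0.00032) and had 0.09 in UKE1. The differences were -0.26, 0.34 and 0.49 for KCNAB2, KCNAB3 and KCNAB1 (adjusted p = 0.0382, 0.022 and 0.00283). Over all genes 23.9% had a called difference.

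KCNIP2, a calcium-binding subunit of the A-type pores, had 6.63, 6.65 and 6.61 in treated UKE1, against 6.75, 6.49 and 6.54 in untreated UKE1, and 7.47, 7.47 and 7.49 in treated HEL, against 7.90, 7.93 and 7.94 in untreated HEL. It fell in HEL by 0.45 (adjusted p = 8.82e-05), had 0.04 (95% interval -0.11 to 0.18) in UKE1, and differed by 0.48 ± 0.096 SE between the lines (adjusted p = 0.00236). KCNIP4, of the same family, fell in UKE1 by 0.23 (adjusted p = 0.0399) and had 0.18 in HEL, a called difference of -0.41 (adjusted p = 0.0233). Its mean over all arrays was 3.86.

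Several of these calls were lost in at least 1 fit that left out 1 array: KCNC2, KCNIP4 and KCNK9 in UKE1, and KCND2, KCNE4, KCNH3, KCNJ14, KCNJ8 and KCNS3 in HEL. Among the differences between lines this held for KCNA3, KCNAB2, KCNAB3, KCNIP4 and KCNN1.

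**Figure D3:**
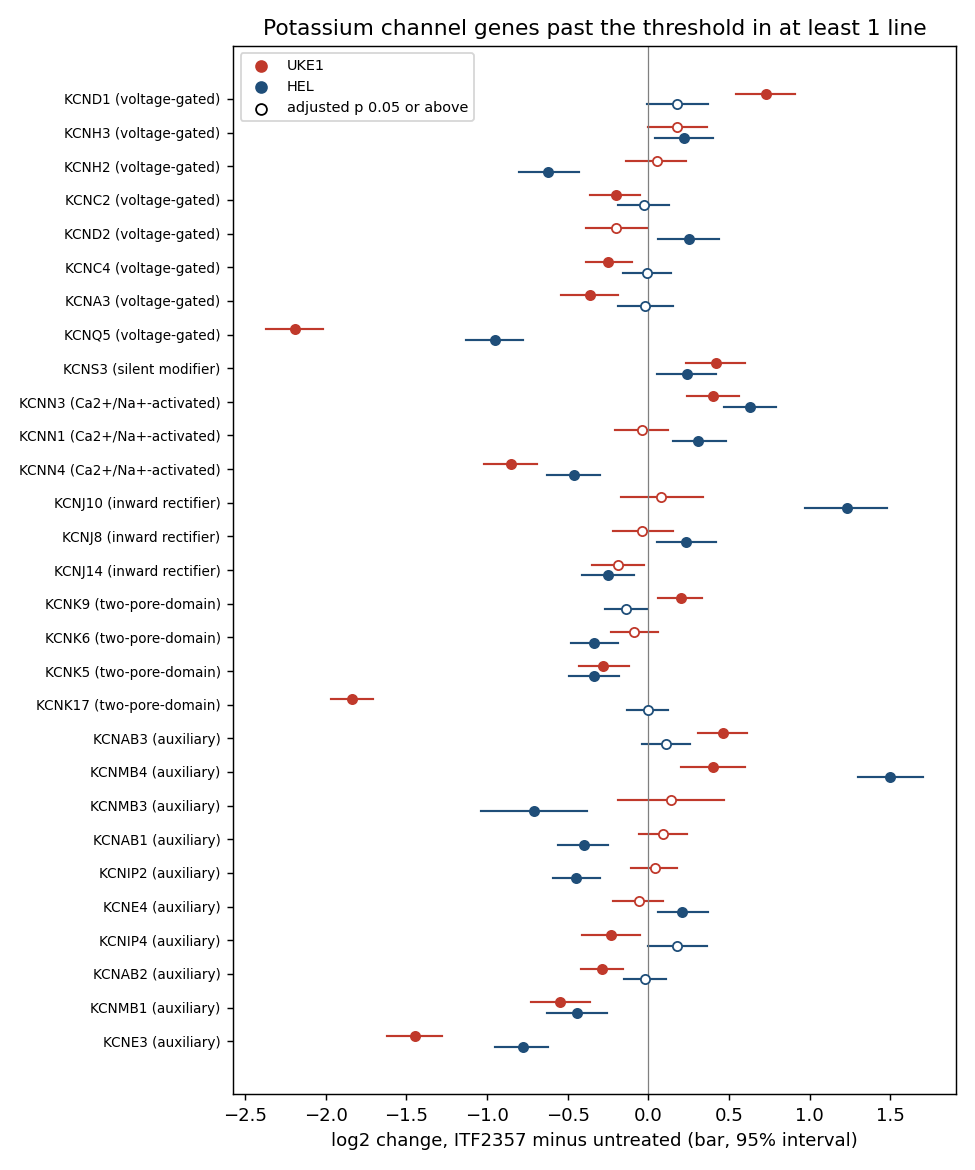
Log2 change with ITF2357 (x axis, with 95% intervals from limma) for the 29 potassium channel genes called in at least 1 line, UKE1 in red above HEL in blue, ordered by role. Filled points passed the adjusted p threshold of 0.05 and open points did not. Intervals of several genes do not meet between the lines, among them KCNQ5, KCNK17, KCNJ10, KCNMB4, KCNE3, KCNN4, KCNH2 and KCND1.

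The responses of the lines differed for 18 of the 86 channel genes (20.9%, against 23.9% of all genes). The UKE1 change was the higher one on the log2 scale for 7 (10.1% of all genes) and the lower one for 11 (13.8% of all genes). For 4, KCNK17, KCNQ5, KCNJ10 and KCNMB4, the difference was at least 2-fold (4.65%, against 2.12% of all genes). Without untreated HEL replicate 2 the number with a lower UKE1 change was 7. Of the 8 genes called in both lines 4 had a called difference (KCNQ5, KCNE3, KCNN4 and KCNMB4), and of the 21 called in 1 line 14 had one. The other 4 genes called in both lines moved by amounts not called different, with differences of -0.10 for KCNMB1, 0.06 for KCNK5, -0.23 for KCNN3 and 0.18 for KCNS3 (adjusted p = 0.591, 0.729, 0.126 and 0.329). The difference of KCNMB3 (0.85, adjusted p = 0.0115) was 0.13 after quantile normalization (adjusted p = 0.743), where another of its rows had the highest mean.

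Without drug the lines differed in many channel genes. In untreated UKE1 29 were higher and 26 lower than in untreated HEL, 64.0% of the 86, against 67.7% of all genes (33.3% higher and 34.4% lower). Of them 10 (11.6%) differed at least 2-fold, against 15.6% of all genes. All 3 untreated UKE1 arrays lay above all 3 untreated HEL arrays for 31 channel genes and below them for 26, while 34.2% and 35.2% of all genes did so, 69.4% together. Higher in UKE1 were KCNK17 (2.59-fold), KCNQ5 (2.13-fold), KCNQ1 (1.78-fold), KCNJ5 (1.76-fold), a pore of the acetylcholine-activated current of the heart, the kidney channel KCNJ1 by 0.62 and the small subunit KCNE2 by 0.55 on the log2 scale. KCNJ1, with the lowest mean of the 86, had 3.77 in untreated UKE1 and 3.16 in untreated HEL, and KCNE2 had 4.64 and 4.08. KCNJ1 and KCNJ5 are next to each other on chromosome 11, and neither was called with the drug. All 3 measured KCNQ genes were higher in untreated UKE1, KCNQ3 by 0.33, while 33.3% of all genes were.

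Lower in untreated UKE1 were KCNMB3 (3.94-fold), KCNK5 (3.66-fold), KCNIP2 (2.52-fold), KCNK6 (2.45-fold), KCNN1 (2.45-fold) and KCNJ8 (2.36-fold). For KCNMB3 the log2 differences of its 4 rows were -0.72, -2.01, -1.98 and -1.93. KCNK5 had 7.14, 7.33 and 7.10 in untreated UKE1, against 9.02, 9.04 and 9.12 in untreated HEL. KCNN1 had 5.80, 5.62 and 5.52 in untreated UKE1, against 7.03, 6.88 and 6.90 in untreated HEL, and KCNN3 was lower by 1.10. KCNN4, in contrast, was higher in untreated UKE1 by 0.31 (adjusted p = 0.00293), and KCNA3 by 0.26 (adjusted p = 0.0101). Of the lymphoid markers CD3D, CD3E and CD79A were also higher there and CD2 and CD7 lower, and their part in these values was not tested. All 4 genes of the KCNMB family were lower in untreated UKE1, with log2 differences of -0.28 for KCNMB1 to -1.98 for KCNMB3. Over all genes 34.4% were lower there, and this family was named after its values were seen. The pore gene KCNMA1 had -0.45 (adjusted p = 3.4e-05). Of the 55 calls between the untreated lines 44 were kept in every fit that left out 1 array. Those lost in at least 1 were KCNA1, KCNA3, KCNA5, KCNG4, KCNIP3, KCNJ13, KCNJ14, KCNJ6, KCNJ9, KCNQ1DN and KCNT1.

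**Figure D4:**
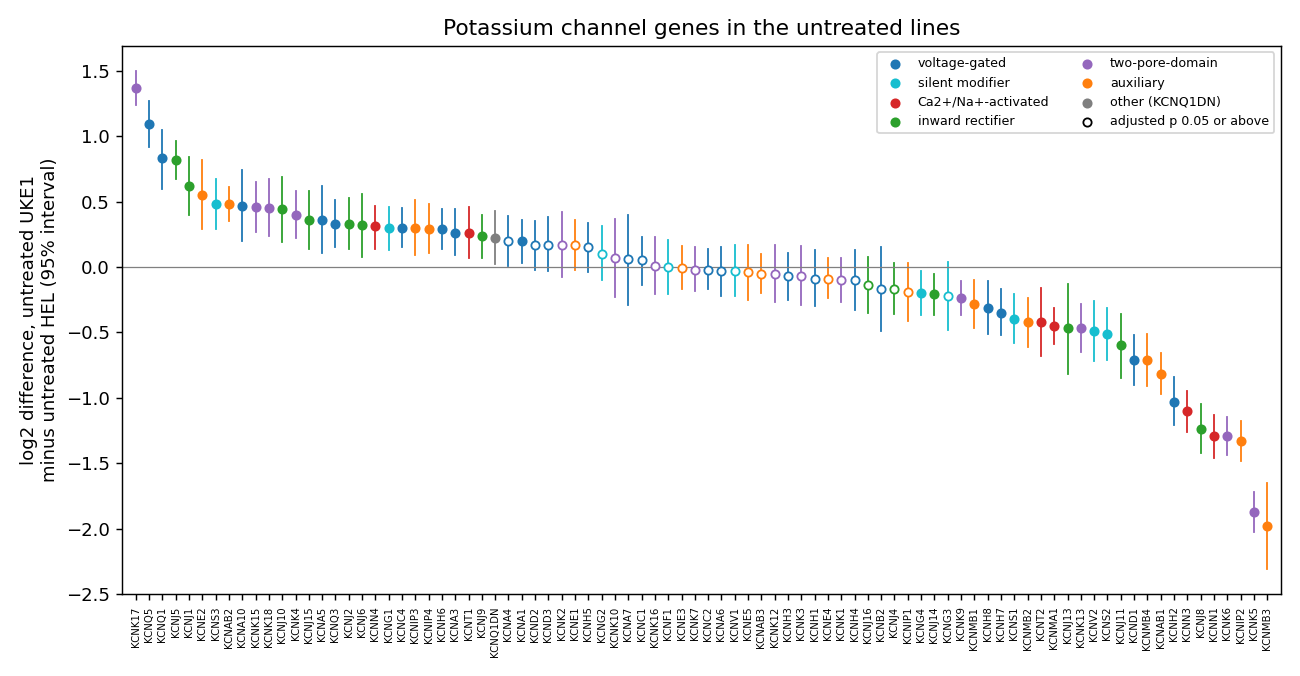
Log2 difference between untreated UKE1 and untreated HEL (y axis, 95% intervals from limma) for each of the 86 potassium channel genes, ranked from highest in UKE1 on the left to lowest on the right and coloured by role. Filled points passed the adjusted p threshold of 0.05; KCNK17 and KCNQ5 head the left end, and KCNK5 and KCNMB3 close the right end.

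Other genes of potassium transport, taken from a fixed list of 28 of which 20 were measured, gave 3 that rose and 2 that fell in UKE1 and 7 that rose and 1 that fell in HEL (25.0% and 40.0% called, against 44.3% and 42.4% of all genes). Genes named here were chosen after their values were seen. The potassium-chloride cotransporter gene SLC12A4 rose in both lines, by 1.13 in UKE1 and 0.99 in HEL, while its relative SLC12A7 fell in UKE1 by 0.53 and had 0.07 in HEL. The sodium pump subunit gene ATP1B1 rose in HEL by 1.32 and had -0.10 in UKE1, a called difference of -1.43. HCN3, a pore of the hyperpolarisation-activated current, rose by 0.83 in UKE1 and 0.47 in HEL, and TRPM4, a calcium-activated cation channel, by 0.79 and 0.36.

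Among 15 measured of 19 listed partners of potassium channels, 3 rose and 3 fell in UKE1 (40.0% called, against 44.3% of all genes), and 3 rose and 0 fell in HEL (20.0%, against 42.4%). NEDD4L, a ubiquitin ligase that removes several channels from the membrane, rose by 0.58 in UKE1 and 0.83 in HEL. SGK1, a kinase that opposes it and responds to glucocorticoids, rose in UKE1 by 1.69 and had 0.01 in HEL. UKE1 medium held hydrocortisone in both conditions, and its part in this value was not tested. All 22 listed genes of calcium handling were measured, which include genes of calcium entry and release and the ATP2A and ATP2B calcium pumps. Of these 8 rose and 9 fell in UKE1 (77.3% called, against 44.3% of all genes), and 9 rose and 6 fell in HEL (68.2%, against 42.4%). The mechanically gated channel PIEZO1, which feeds calcium to KCNN4 in red cells, fell in UKE1 by 0.50 and had -0.06 in HEL. The endoplasmic calcium sensors STIM1 and STIM2 rose in both lines, by 0.46 and 0.71 in UKE1 and by 0.36 and 0.53 in HEL, whereas the membrane pore ORAI2 fell by 0.71 and 0.31. The release channels ITPR1 and ITPR2 rose by 0.37 and 0.85 in UKE1 and by 0.76 and 0.57 in HEL.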

How the data were processed

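Expression was measured on 12 Affymetrix Gene ST arrays. The authors' tools were RMA and Affymetrix Expression Console, per the submitters' processing notes. Their versions and the genome build were not given in the sources used here. Deposited values were read as log2 from their range (1.26 to 14.36), since no label states the base. The number of arrays limits the precision.

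GEO's platform annotation gave 1 symbol for 19460 of 33297 rows, several for 1754 and none listed for 12083. Rows with 1 symbol were kept, which left 18417 genes. The 86 potassium channel genes had 90 such rows, and RefSeq (GRCh38.p14) listed all 86 under the same symbols. A further 11 protein-coding KCN genes of RefSeq had no single-symbol row and were not analysed here.

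A mean per group was fitted with limma 3.58.1 (lmFit, eBayes, R 4.3.3; 8 residual degrees of freedom), two-sided, with Benjamini-Hochberg adjustment over 18417 genes. Contrasts were ITF2357 minus untreated in UKE1 and in HEL, the difference of these (UKE1 minus HEL), and UKE1 minus HEL without drug. Genes named were up to 8 each way past the threshold per line, 5 each way for the difference, 6 each way for the untreated lines, and 12 set whatever their values, of which KCNRG had no row of its own; further called genes were named after their values were seen. The members and lists were chosen with earlier results of these data known. Arrays simulated for all 18417 genes were used to test the code.

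Same-numbered treated and untreated arrays of a line had deviations that correlated between -0.09 and 0.06, so the replicate numbers were not taken to pair the samples.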

Additional observations from a re-analysis of the deposited data

Results flagged for a closer look

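Responses to ITF2357 differed between the lines for the following named genes by the interaction term of limma's model, given as the log2 change in UKE1 minus that in HEL. More negative in UKE1 were KCNK17 (-1.84, adjusted p = 4.55e-08), KCNQ5 (-1.24, adjusted p = 5.58e-06), KCNJ10 (-1.14, adjusted p = 0.000236), KCNMB4 (-1.10, adjusted p = 5.36e-05) and KCNE3 (-0.67, adjusted p = 0.000623). KCND2 (-0.45), KCNN4 (-0.39), KCNN1 (-0.35), KCNA3 (-0.34) and KCNAB2 (-0.26) followed, with adjusted p = 0.0165, 0.019, 0.0304, 0.0427 and 0.0382. More positive in UKE1 were KCNMB3 (0.85, adjusted p = 0.0115), KCNH2 (0.67, adjusted p = 0.0013), KCND1 (0.55, adjusted p = 0.0055), KCNAB1 (0.49, adjusted p = 0.00283) and KCNIP2 (0.48, adjusted p = 0.00236). KCNAB3 (0.34) and KCNK9 (0.33) came last, with adjusted p = 0.022 and 0.0128. KCNQ5, KCNE3, KCNN4 and KCNMB4 moved the same way in both lines and differed in size. The other 13 were called in 1 line. KCNIP4, outside the naming rule, had -0.41 (adjusted p = 0.0233). The KCNMB3 value rests on the choice of row, since its rows had differences of 0.19, 1.16, 0.85 and 0.74. Of the 18 called differences 13 were kept in every fit that left out 1 array, and 12 in every other alternative. Lost in at least 1 of those other alternatives were KCNA3, KCNAB2, KCNIP4, KCNK9, KCNMB3 and KCNN1.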

How the results depend on the processing

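Limiting the tests to genes at or above the median level kept 12 of the 86 channel genes. In UKE1 1 rose and 6 fell, beside 2976 and 3422 of all 9209 genes tested. In HEL 1 rose and 6 fell, beside 3334 and 3043. The differences were positive for 2 and negative for 5, beside 1455 and 2261. Without drug 5 were higher and 5 lower in UKE1, beside 3422 and 3960. With an intensity trend and robust prior the number that rose in HEL was 4. Leaving out 1 array at a time gave 5 to 8 rising and 9 to 13 falling in UKE1, 5 to 8 rising and 10 to 14 falling in HEL, 6 to 7 positive and 7 to 11 negative differences, and 23 to 29 higher and 24 to 26 lower in untreated UKE1. The 7 negative differences came without untreated HEL replicate 2. Of the main calls 14 of 17 in UKE1 and 14 of 20 in HEL were kept in all 12 of these fits. No named gene reversed in any alternative. The replicate block gave 6 rising and 12 falling in UKE1 and 8 rising and 12 falling in HEL. Whether the replicate numbers pair the samples is not stated in the labels. Over all genes, centring each array on its median gave 1370 positive and 3102 negative differences, against 1854 and 2541 as deposited. Of the channel genes 74 had a mean below the median gene level, and which of them were above background is not recorded.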

Other observations

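Rows that carry a KCN symbol beside another gene's stayed out of the counts. Both rows shared by KCNRG, a regulator of potassium channels, and TRIM13 had negative log2 changes, -0.55 and -0.43 in UKE1 and -0.65 and -0.58 in HEL, and the 2 genes cannot be told apart there. The row shared by the near-identical inward rectifier genes KCNJ18 and KCNJ12 had 0.03 in UKE1 and -0.13 in HEL.

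Other channel families gave these counts with the drug. Over all genes 44.3% were called in UKE1 and 42.4% in HEL. Of 12 sodium channel genes 2 rose and 0 fell in UKE1 (16.7% called), and 1 rose and 0 fell in HEL (8.33%). Of 25 calcium channel genes 3 rose and 2 fell in UKE1 (20.0%), and 2 rose and 2 fell in HEL (16%). Of 22 TRP channel genes 2 rose and 6 fell in UKE1 (36.4%), and 1 rose and 5 fell in HEL (27.3%). Of 6 CLCN chloride channel genes 4 rose and 0 fell in UKE1 (66.7%), and 3 rose and 1 fell in HEL (66.7%).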
